A study of Macaca mulatta with 11 samples.

Results

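Lightly methylated CpG-rich regions are stretches of DNA in which many CpG sites lie close together and a small share of the reads is methylated. Of 45982 regions with at least 20 measured CpG positions, 10057 had a level from 5% up to but not including 20% and are described here. A region is a run of positions at most 200 bp apart, with runs split every 1000 bp. CpG counts and densities below are of measured positions, so a CpG measured on both strands counts once for each. Several regions named for most CpGs hold many positions in pairs 1 bp apart, as the strands of one CpG would be. The level of a region is the percentage of methylated reads among all reads, both summed over its positions and the 11 animals. Regions with a range between animals over 50 percentage points were left out. The regions were chosen by their pooled methylation level, so the levels and profiles below are descriptions without a test. The files name no gene. Regions are given by the files' own coordinates, and the genome build behind them is not given in the sources used.

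The tissue was prefrontal cortex area 46 of rhesus macaques, and every animal's tissue is labelled as ethanol-naive. Cohort 10 gave 2 animals, aged 5.02 and 5.08, and cohort 14 gave 9 animals, aged 5.18 to 5.44. Each label also carries an ethanol value for 6 months, from 1.69 to 4.31, and states no unit for it or for age. Area 46 is part of the dorsolateral prefrontal cortex, a region known for its part in working memory and in guiding behaviour. The labels name the tissue and not its cell types, so a level is a mix over neurons, glia and other cells, and a change in cell makeup cannot be told apart from a change within a cell type. Libraries were captured with probes designed on the human genome and held 479979855 to 934657900 reads summed over positions. In an animal, the reads summed over the positions of a region had a median of 8651 and were 327 at the least. A read that spans several CpGs counts at each of them in this sum. Averaged over its positions and the 11 animals, the depth of a region had a median of 198 reads. In single animals the median depth of a position in these regions ran from 118 to 218 reads.

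In mammals, DNA methyltransferases add a methyl group to the cytosine of most CpGs. CpG islands, where CpGs are dense, are the common exception and often mark gene promoters. At the border of an island, called a shore, the level climbs to that of the surrounding DNA. Bisulfite turns unmethylated cytosine into uracil, and cytosine left unconverted by chance is counted as methylated. The conversion rate of these libraries was not analysed here.

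Most of these regions were not lightly methylated at each of their CpGs. Of the 470494 CpG positions in them, 52.3% had a level below 5%, 35.9% lay from 5% to 20%, 8.60% from 20% to 50%, 2.44% from 50% to 80% and 0.735% at 80% or more. CpGs at 20% or more held 49.1% of the summed level. In 5838 regions, 58.0% of them, the median CpG lay below 5%. Without the 3 most methylated CpGs, the mean over CpGs fell below 5% in 2805 regions (27.9%).

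To say where in a region the methylation lay, its CpGs were put in order into 4 segments of equal number. The level came from 1 outer segment in 5920 regions (58.9%), in which that segment held at least 50% of the summed CpG level. This profile is called one end. Only 125 regions (1.24%) had both ends raised, with at least 75% of the sum in the outer segments and less than 50% in either. In 25 regions (0.249%) 1 inner segment held at least 50% or both together at least 75%, a profile called inside. The level was even, with the highest segment holding at most 2 times the sum of the lowest, in 1247 regions (12.4%). The remaining 2740 (27.2%) fitted none of these and are called mixed.

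Profiles were also found in each animal alone. One end took 58.7% ± 2.09 of the regions (SD, n = 11 animals) and even took 9.13% ± 0.801. Of the 5920 regions with 1 raised end, 4029 (68.1%) had that profile in all 11 animals. The same end was the higher of the pair in all 11 animals in 5853 (98.9%). The even profile was less firmly set, with 38 of 1247 regions (3.05%) even in all 11 animals and a median of 6 animals. Fewer reads lie behind each CpG in an animal alone than in the pool. In all, 3315 regions were raised at the lower coordinate and 2605 at the higher. Runs were split from their lower coordinate, and in runs that no split had cut the counts were 1003 and 1025.

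**Figure D1:**
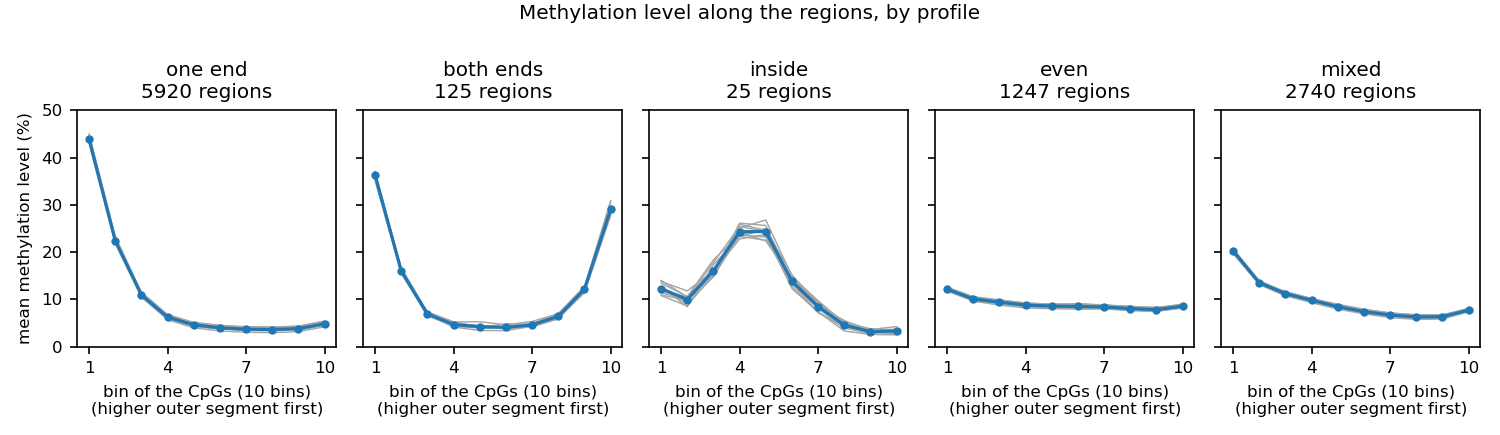
Mean methylation level (y axis, percent) by bin of the CpGs in order (x axis, 10 bins, turned so that the outer segment with the larger sum comes first) for the 5 profiles. Grey lines are the 11 animals and blue points their mean; regions raised at one end go from 43.9% in bin 1 to 3.63% in bin 8, while even regions stay between 7.84% and 12.2%.

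Within the one-end regions the level fell with distance from the raised end. The profile is defined by a high outer segment, so a fall from that end and a lower rest follow from the choice. The rule and the profile limit how far a raised stretch can reach inside a region, so its full length is not known. CpGs within 100 bp of it had a mean level of 44.8% ± 0.579 (SD over 11 animals), and 40.1% of them had a pooled level of 50% or more. The mean was 25.9% ± 0.418 at 100 to 200 bp, 14.6% ± 0.291 at 200 to 300 bp and 8.79% ± 0.315 at 300 to 400 bp. From 600 bp on it was 3.78% to 4.14%, and 81.0% to 83.6% of CpGs there lay below 5%. The higher segment had a mean level of 27.4% ± 0.492 and the other 3 segments together had 4.57% ± 0.344 (SD, n = 11). In every animal the higher segment lay between 26.7% and 28.4% and the rest between 3.95% and 5.08%. In 4153 of these regions (70.2%) the level of the rest, averaged over the 11 animals, was below 5%.

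The DNA beyond the raised end, which the rule did not use, was methylated. A further region of at least 5 positions adjoined the raised end in 659 of the 5920 regions (11.1%) and the low end in 3154 (53.3%), so beyond most raised ends nothing was compared. The adjoining region had a median level of 59.4% on the raised side and 3.77% on the low side. The medians in single animals ran from 57.9% to 60.4% on the raised side and from 3.11% to 4.39% on the low side, with no overlap. On the raised side 62.2% of the adjoining regions lay at 50% or more, against 2.79% on the low side. Among the 305 regions measured beyond both ends, the raised side was higher in 299, and in all 11 animals in 287 of them.

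Place within the measured run went with the end that was raised. Where a region was the first piece of a longer run, 80.7% of one-end regions were raised at the lower coordinate, the outer edge of the run. Where it was the last piece, 92.0% were raised at the higher coordinate, again the outer edge. Whole runs, which no split had cut, were raised at one end in 55.9% and at both ends in 2.18% of 3630 regions. Inner pieces, with measured DNA on both sides, had 41.1% at one end and 25.8% even. Of these one-end inner pieces, 389 (78.6%) were raised at the higher coordinate and 106 (21.4%) at the lower. Neither is an outer edge of the run, and the cause was not tested.

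The one-end regions with most measured positions, many of them in pairs 1 bp apart, show the shape. On chromosome 1, 157 CpGs lay from 113462017 to 113463015, and the mean CpG level of its segments in order was 3.49%, 3.06%, 7.23% and 18.6%. Of its CpGs, 92 lay below 5% and 3 at 50% or more, and the piece of DNA beyond its raised end was at 33.7%. Its level in the animals ran from 10.3% to 18.8% with a median of 11.8%, and animal 6 of cohort 14 was the highest. On chromosome 20, from 14913644 to 14914539, the 146 CpGs had segments of 5.20%, 3.69%, 3.67% and 23.7%. On chromosome 1, from 218064121 to 218065011, the 140 CpGs had 3.88%, 4.82%, 6.38% and 22.8%. In both of these the profile was found in all 11 animals, and no region of at least 5 positions adjoined the raised end.

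Regions raised at both ends or inside were few. On chromosome 2 from 150524527 to 150525519, 123 CpGs had segments of 23.4%, 4.96%, 5.07% and 21.4%. The animals ran from 8.03% to 25.5% there with a median of 10.2%, the 2 highest being animals 6 and 3 of cohort 14. On chromosome 7 from 135697876 to 135698855, 93 CpGs had 14.6%, 3.15%, 4.12% and 17.9%. Among regions raised inside, 134 CpGs on chromosome 9 from 111637266 to 111638234 had 3.57%, 16.04%, 10.5% and 4.32%, and no CpG there reached 50%. The profile was inside in 9 of the 11 animals. On chromosome 5 from 3920630 to 3921358, 112 CpGs had 5.81%, 29.4%, 18.0% and 7.97%, with 9 CpGs at 50% or more.

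In even regions most CpGs were lightly methylated. On average 62.9% of their CpGs lay from 5% to 20%, against 24.4% in one-end regions, and 0.0975% lay at 50% or more, against 5.28%. Below 5% the shares were 30.6% and 61.0%, and in 318 of the 1247 even regions (25.5%) the median CpG lay below 5%. In 1197 of the 1247 (96.0%) no CpG reached 50%. One of the named regions lay on chromosome 16 from 47569143 to 47570127, where 141 of 174 CpGs had a level from 5% to 20% and the segments had 17.3%, 17.2%, 16.1% and 13.9%. Its level was 15.7% ± 2.80 (SD, n = 11), from 12.7% to 20.9%, and the profile was even in all 11 animals. The region of most measured positions, on chromosome 17 from 31338479 to 31339456, was lower, at 6.82% ± 1.11. Its segments had 5.24%, 5.81%, 5.80% and 8.39%. Of its 254 positions, many of them in pairs 1 bp apart, 108 lay below 5%. On chromosome 1, the 138 CpGs from 108411414 to 108412408 had 6.02% ± 0.583, and in single animals the profile was even in 3 of 11. Of these CpGs, 99 lay below 5%.

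**Figure D2:**
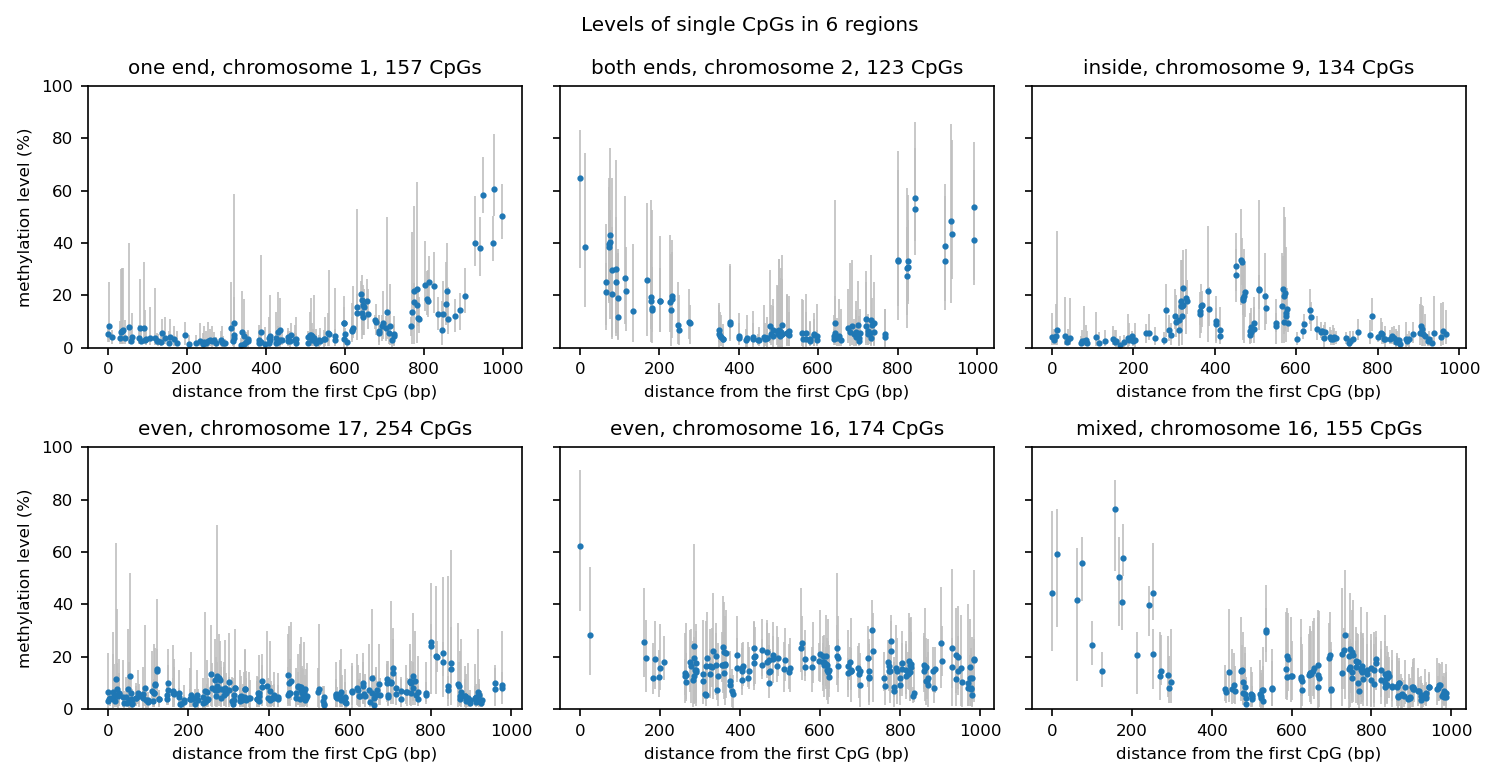
Methylation level of each CpG (y axis, percent; points are the mean of 11 animals, grey bars the lowest to the highest animal) against its distance from the first CpG of the region (x axis, bp) in 6 named regions. In the one-end region on chromosome 1 the highest CpG, near the last, has a pooled level of 60.6%, and in the even region on chromosome 16 most points lie from 5% to 20% along the whole length.

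Even regions were also the lowest of the profiles. Their median pooled level was 7.25%, against 10.1% in one-end and 8.28% in mixed regions. The share of even regions was 18.4% among those at 5% to 8% and 8.39% among those at 16% to 20%, while one end took 47.5% and 65.8%. No methylated or unmethylated count is below 1, which would follow if 1 had been added to each, and such an addition lifts a low level. With 1 taken off each, 947 of the 10057 regions (9.42%) fell below 5%, among them 253 of the 1247 even regions (20.3%) and 317 of the 5920 one-end regions (5.35%). Over all 10057 regions the median level went from 9.35% to 8.85%.

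CpG-rich regions at other levels had other profiles, although the profile shares depend on the level itself. One end took 9.26% of the 13991 regions below 5%, 22.9% of the 11324 regions from 20% to 80% and 0% of the 10607 regions above 80%. Even took 64.1%, 48.6% and 99.5% of them. Median CpG density was 5.67 per 100 bp in the lightly methylated regions, 6.79 below 5% and 4.47 from 20% to 80%. These differences are descriptions and were not tested. Within the lightly methylated regions, even ones had 6.25 CpGs per 100 bp and one-end ones 5.41. Their depths, averaged over positions and animals, had medians of 203 and 200.3 reads.

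From a spacing of 2 bp upward, CpGs farther from their nearest measured position were more methylated. CpGs whose nearest measured position lay 2 to 4 bp away had a mean level of 7.60% ± 0.340 (SD over 11 animals). The level was 11.4% ± 0.278 with a nearest position at 11 to 20 bp and 27.2% ± 0.411 at 41 to 200 bp. In the inner segments alone the level also rose from bin to bin over these spacings, by less, with 5.69% ± 0.355 at 2 to 4 bp and 8.78% ± 0.351 at 41 to 200 bp. Among positions 1 bp from their neighbour, as the strands of one CpG would be, the mean was 9.22% ± 0.366 over 19300 positions. In the inner segments it was 7.32% ± 0.419, above the 6.41% ± 0.315 found there at 11 to 20 bp.

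The animals differed in these regions by more than independent counts at each CpG would give. From the lowest to the highest animal, the range had a median of 5 points. It was under 5 points in 5029 regions and 20 points or more in 67. The median SD between animals was 1.54 points. Its ratio to the SD from independent counts had a median of 4.67, and the SD exceeded that value in all 10057 regions. CpGs on one read are not independent, nor are reads of one PCR-copied molecule. The value from counts can therefore be too low and the ratio too high, by an amount that was not tested. The median range was 3.40 points in regions at 5% to 8% and 8.51 points at 16% to 20%. In regions below 5% it was 1.94 points, and from 20% to 80% it was 12.8 points. In one-end regions the median range was 11.9 points in the higher segment, whose mean level was 27.4%, and 2.58 points in the rest, whose mean level was 4.57%.

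A level between 5% and 20% held in all 11 animals in 5846 regions (58.1%). In 2690 regions at least 1 animal lay below 5%, and in 1562 at least 1 animal lay at 20% or more. Leaving out a single animal took the pooled level below 5% in 324 regions. Near the lower limit, the regions just inside it had pooled levels of 5.0002% and 5.0009% and those just outside it 4.9999% and 4.9995%. At the upper limit the values were 19.9994% and 19.9980% inside and 20.0004% and 20.0026% outside. The widest ranges inside the limit of 50 points were 48.6 and 42.9 points, and the 3 regions outside it had 50.1, 52.3 and 63.3 points.

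In 0 regions did 1 animal lie at least 10 points below the next lowest. A pooled level below 20% limits how far an animal can fall, and whether that accounts for the 0 was not tested. In 41 regions 1 animal lay at least 10 points above the next. The level of that animal ran from 18.4% to 55.8% with a median of 31.7%, and that of the next animal had a median of 18.3%. Animal 6 of cohort 14 was the high one in 10 of the 41 and animal 9 of cohort 14 in 6. Animals 3, 6, 7 and 8 of cohort 14, whose levels scatter most over the series, made up 21 of the 41. Even was the most frequent profile among the 41 regions, with 21. Of 13 measured pieces of DNA adjoining them, 9 had the same animal as the highest. Over all lightly methylated regions the highest animal was the same in 18.2% of 6798 adjoining pieces.

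The named region of most CpGs among the widest lay on chromosome 4, where animal 6 of cohort 14 was the highest over 3 adjoining pieces. In the region of 97 CpGs from 55923547 to 55924526 it had 48.1%, and the other 10 animals had 8.44% to 13.0%. Its level was the highest of the 11 at 93 of the 97 CpGs, with a median CpG at 47.2%, and the profile was even in every animal. The adjoining 112 CpGs from 55922546 to 55923520 had 34.6% in that animal and 4.14% to 7.42% in the others. The next 127 CpGs, from 55921540 to 55922530, had 53.1% against 3.08% to 4.96% and were left out of the 10057 because their range exceeds 50 points. Depth was not low there, with at least 18582 reads in every animal, summed over the 97 CpGs.

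On chromosome 1, the 68 CpGs from 171851051 to 171852040 were raised at one end in 10 of 11 animals. Animal 9 of cohort 14 had 47.3% in it and the others 7.28% to 14.4%. Its raised end is the first segment, at 40.3%. The 10 CpGs beyond its low end, from 171852076 to 171852531, had 79.1% in animal 9 and 66.5% to 76.2% in the others. The other 3 regions of widest range held 21 or 22 CpGs each and had fewer reads. On chromosome 5 from 138457324 to 138457515 the animals ran from 7.11% to 55.8% with a median of 11.98%. On chromosome 19 from 40132500 to 40132930 they ran from 2.01% to 44.9% with a median of 13.2%. On chromosome 9 from 41809170 to 41809343 they ran from 3.54% to 43.4% with a median of 13.6%, and 4 animals lay above 20%. The lowest number of reads in an animal, summed over the positions of the region, was 678, 815 and 900 in these 3 regions.

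At the other extreme, 33 CpGs on chromosome 13 from 18530419 to 18531160 lay between 5.33% and 6.23% in all 11 animals. On chromosome 2, the 75 CpGs from 109238491 to 109239442 ran from 5.335% to 6.23%, and 55 CpGs on chromosome 20 from 54579243 to 54580230 ran from 5.20% to 6.10%. The last 2 are raised at one end, with 15.6% and 15.9% in the last segment.

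**Figure D3:**
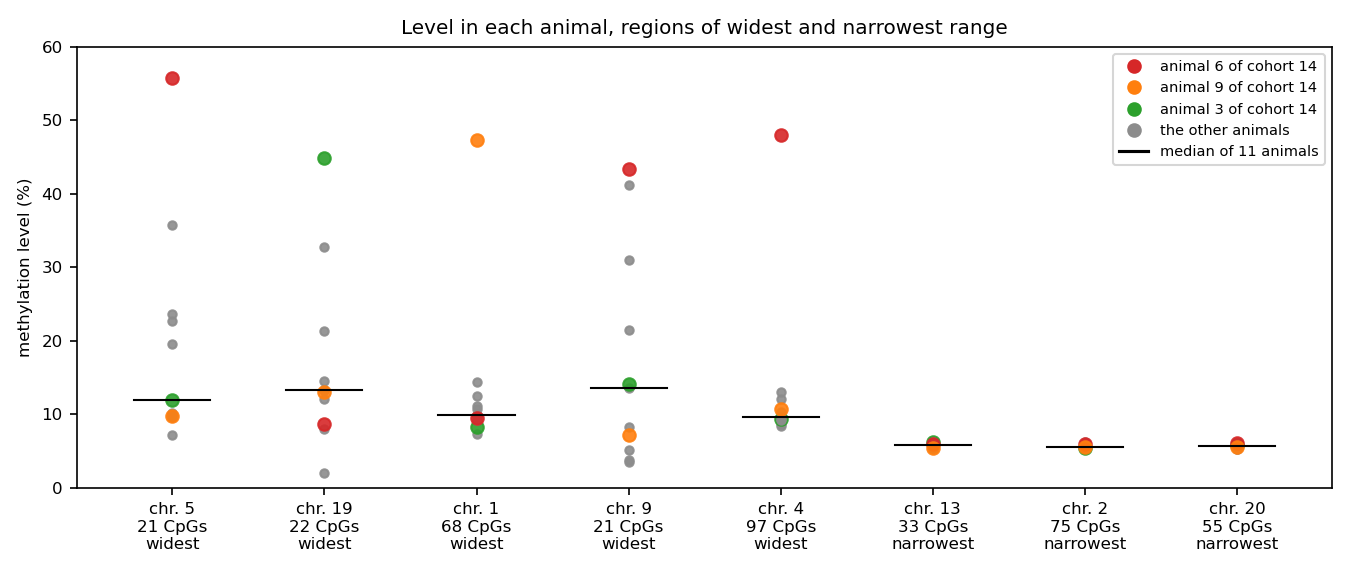
Methylation level (y axis, percent) of each of the 11 animals in the 5 regions of widest and the 3 of narrowest range, with the median as a black line and 3 animals of cohort 14 in colour. On chromosomes 1 and 4 a single animal stands at 47.3% and 48.1% above the others, while on chromosomes 5, 9 and 19 the animals are spread out.

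A relation to the ethanol value was called in none of the lightly methylated regions. The count was 0 of 10057 at an adjusted p under 0.05 in the logistic model with limma-moderated dispersion, and 0 of all 119749 regions fitted (0%). Limma on logit levels and edgeR called 0 as well. An unadjusted p under 0.05 in the logistic model was found in 389 of the regions (3.87%), against 2.92% of all regions fitted. The count was 200 with limma and 397 with edgeR, whose own shares over all regions fitted are not given here. Of the 389, 340 (3.38%) had a slope above 0, where the background is 1.82%, and 49 (0.487%) a slope below 0, where it is 1.1%. The median standard error of a slope was 0.637 points per unit of the ethanol value, and the median 95% interval reached 1.47 points to either side. In 51.0% of the regions that interval lay within 2 points of 0 on both sides.

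The slope was above 0 in 6877 regions (68.4%) and in 54.2% of all regions fitted, with medians of 0.26 and 0.13 points per unit. In the 11324 CpG-rich regions from 20% to 80%, 59.95% of slopes were above 0 and the median was larger, at 0.37 points per unit. By profile, 69.4% of one-end, 66.5% of even and 67.0% of mixed regions had slopes above 0. All regions share the same 11 animals, so they do not count as separate evidence. The level averaged over the regions was 9.90% in the animal with the lowest ethanol value, 9.61% in the second lowest, 10.9% in the second highest and 10.4% in the highest. Animals with a value below 3 averaged 10.2% ± 0.390 (SD, n = 6), those from 3 on averaged 10.5% ± 0.328 (SD, n = 5), and the classes overlapped. Regions below 5% had 3.10% ± 0.428 and 3.27% ± 0.310 in the same animals, and the difference between the 2 kinds of region was 7.07% ± 0.125 and 7.25% ± 0.144. Over the animals, the slope of the mean level was 0.281 ± 0.129 points per unit (SE, n = 11) in the lightly methylated regions, 0.192 ± 0.125 in regions below 5% and 0.373 ± 0.0939 in regions from 20% to 80%. The mean of the last of these was 49.5% ± 0.404 in the animals below 3 and 49.8% ± 0.108 in those from 3 on. With the level of regions below 5% as a further covariate, the share of slopes above 0 was 55.6% in the lightly methylated regions and 54.7% over all regions fitted.

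**Figure D4:**
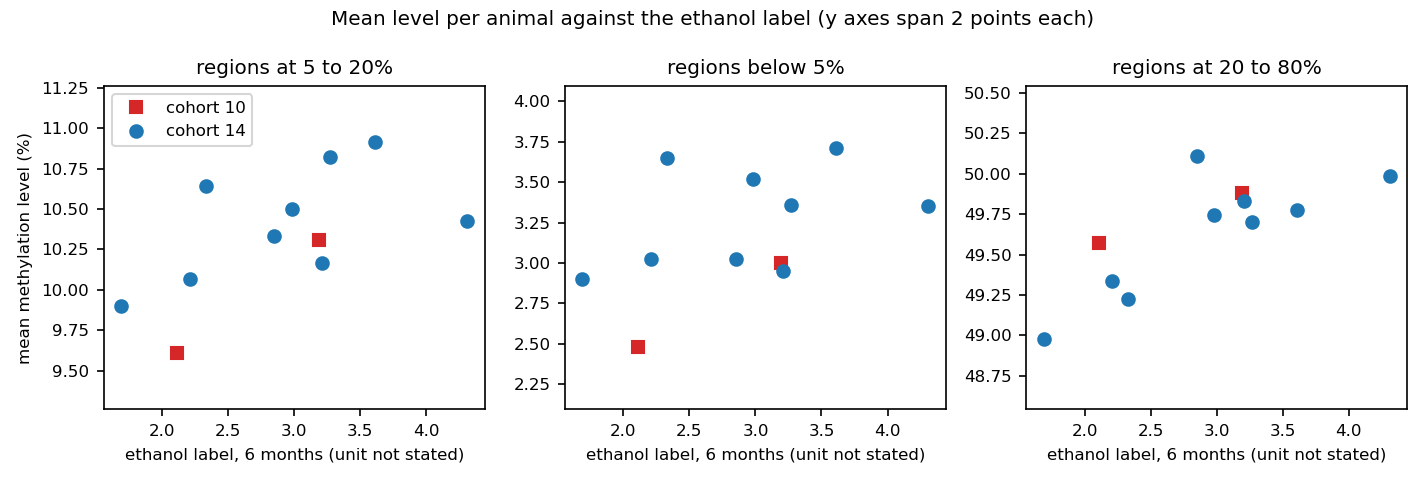
Mean level per animal (y axis, percent, 2 points high in each panel) against the ethanol value of its label (x axis) for regions at 5% to 20%, below 5% and at 20% to 80%; squares are cohort 10 and circles cohort 14. Animal 1 of cohort 10 is the lowest in the first 2 panels, at 9.61% and 2.48%.

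The region nearest to the threshold, on chromosome 19 from 55104721 to 55105139, was higher in animals with low ethanol values. Its 29 CpGs had 28.4%, 34.1%, 24.6% and 26.9% in the 4 animals of lowest value, 14.6% to 18.6% in the next 5, and 11.9% and 9.63% in the 2 of highest value. The slope was -8.79 ± 1.20 points per unit (SE, n = 11), and the adjusted p of the limma-moderated model was 0.169. Under the alternatives it ran from 0.141 to 1. The profile is mixed, with segments of 38.0%, 19.6%, 11.1% and 6.96%, and at 4 of the CpGs the animals differed by over 50 points.

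The other 4 falling slopes were smaller. On chromosome 7 from 126604546 to 126605515, 79 CpGs raised at one end had 19.3% ± 1.55 (SD, n = 6) below a value of 3 and 16.8% ± 1.28 (SD, n = 5) from 3 on. The 29 CpGs on chromosome 5 from 78237181 to 78238174 went from 17.6% ± 1.36 to 13.8% ± 1.94. On chromosome 2 from 125673283 to 125674203, 29 CpGs had 8.51% ± 1.25 and 7.08% ± 0.810. On chromosome 20 from 54056449 to 54057443, 42 CpGs had 8.08% ± 0.956 and 6.49% ± 0.666. The animals overlapped between the classes in each of the 5 regions.

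Among rising slopes, the smallest p was that of 41 CpGs on chromosome 14 from 18510533 to 18511519, with 3.90 ± 0.515 points per unit (SE, n = 11). The animals ran from 9.85% to 21.4% with a median of 12.5%, the lowest and the highest being those of lowest and highest ethanol value. The methylation lay in the first segment, at 36.7%, while the other segments had 2.81%, 2.50% and 2.66%. The 92 CpGs on chromosome 19 from 30799177 to 30800134, also raised at one end, had 10.1% ± 0.810 (SD, n = 6) and 11.9% ± 1.42 (SD, n = 5). On chromosome 20 from 74998488 to 74999482, the level of 36 CpGs was 12.05% ± 0.614 and 15.2% ± 1.93, and the classes did not overlap. On chromosome 16 from 704818 to 705623, 40 of 41 CpGs lay from 5% to 20% in an even profile, with 8.72% ± 1.61 and 11.2% ± 1.46. On chromosome 7 from 37693858 to 37694797, 48 CpGs had 9.33% ± 0.989 and 11.1% ± 0.830. For each of these 5 and for the 4 other falling ones the adjusted p of the limma-moderated model rounded to 1, and under the alternatives the lowest was 0.559. The regions were picked for small p-values from these same animals.

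**Figure D5:**
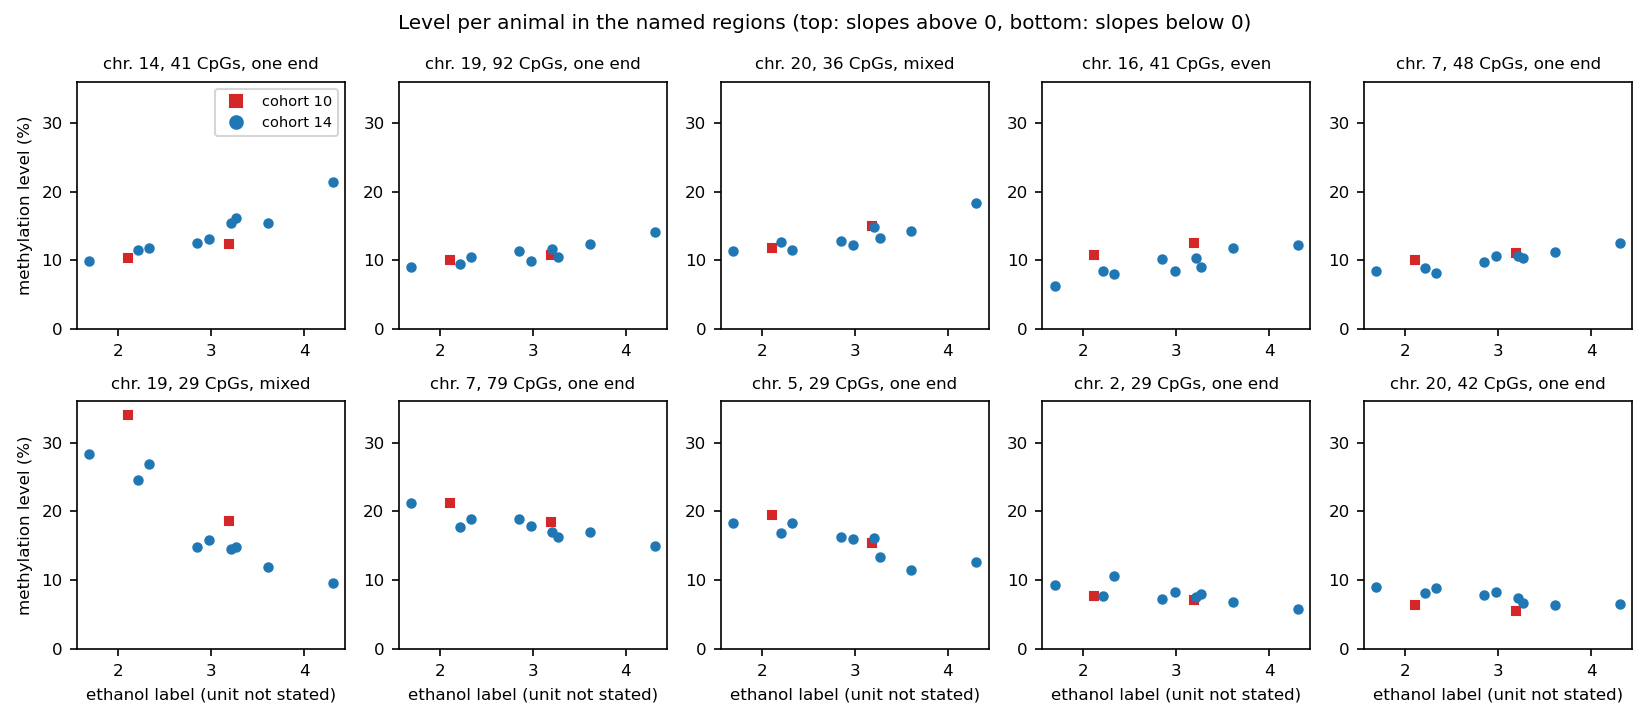
Methylation level (y axis, percent) of each animal against the ethanol value of its label (x axis) in the 10 named regions, with squares for cohort 10 and circles for cohort 14. The region of 29 CpGs on chromosome 19 goes from 34.1% to 9.63%, and the other 9 change less.

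The classes of animals below 3 and from 3 on did not overlap in 34 regions in which the second class was higher (0.338%, with a background of 0.196% over all regions fitted). In 3 regions the second class was lower (0.0298%, with a background of 0.154%). The same 11 animals give every one of these regions.

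No difference between the cohorts was called in these regions. In the limma-moderated logistic model 0 of 10057 regions passed, as did 0 of all regions fitted (0%). In that model an unadjusted p under 0.05 was found in 563 regions (5.60%), against 2.47% of all fitted. Limma on logit levels also called 0. Its unadjusted p was under 0.05 in 483 regions, and its own share over all regions fitted is not given here. A fit without animal 2 of cohort 10 leaves 1 animal in that cohort. A region that stood out in this fit lay on chromosome 6 from 69778700 to 69779693. Animal 1 of cohort 10 had 20.2% there, animal 2 had 4.05% and cohort 14 had 4.41% ± 0.661 (SD, n = 9). The region reached the lower limit of 5% only through animal 1. Of the 563, cohort 10 was lower in 448 (4.45%, with a background of 1.69%) and higher in 115 (1.14%, with a background of 0.776%). The 2 animals of cohort 10 were also the youngest of the 11. Their libraries held the fewest reads summed over positions, 496737892 and 479979855, against at least 548455296 in cohort 14. An effect of age or of depth cannot be told apart from one of cohort. Animal 1 of cohort 10 was the lowest of all 11 animals in 2280 regions (22.7%), and it also had the lowest mean in regions below 5%, at 2.48% against 2.901% to 3.71% in the others.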

How the data were processed

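Methylation was measured by bisulfite sequencing of captured DNA in 11 animals, taken as separate because each label gives its own age and ethanol value. DNA came from the Qiagen AllPrep kit and libraries from the SureSelect XT Human Methyl-Seq kit, per the labels' protocols. The submitters' processing notes name Bismark, a bisulfite aligner, and FastQC, without versions. The authors deposited whole-number counts of methylated and of total reads for 3115109 positions on chromosomes 1 to 20. Each table also held 5 columns that match no sample, which were not used. The lowest methylated and unmethylated counts were both 1 and the lowest total was 12, which would follow if 1 had been added to each kind. The labels are silent on it, and counts were used as deposited.

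Regions of at least 5 positions pooled at 5% to 95% (119749) were fitted by quasi-binomial logistic regression on the ethanol value and cohort. Dispersions were shrunk as in limma, two-sided p-values were adjusted over all fitted regions (Benjamini-Hochberg, threshold 0.05), and slopes in percentage points were fitted to the levels by least squares. The fit was tested on simulated data and compared with the generalised linear model of R. The regions, lists and tests were chosen with earlier results of these data known. Named regions are the 5 smallest p-values in each direction with a sign kept in cohort 14 alone and without each animal, the 3 regions of most CpGs per profile that stay at 5% or more without the added counts, the 5 widest and 3 narrowest ranges, and those next to each limit. The coverage minimum of 10 removed no position. No gene was assigned, because the build of the files is unknown here. Tools were Python 3.11.15, numpy 2.4.6, pandas 2.3.3, scipy 1.17.1, R 4.3.3, limma 3.58.1 and edgeR 4.0.16.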

Additional observations from a re-analysis of the deposited data

Results flagged for a closer look

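In 5 regions, 1 of the 9 animals of cohort 14 lay far from the others. The 45 sets of values looked at include regions named for a wide range, and chance alone gives about 1 in 20. The level was 18.4% in animal 9, against 11.4% to 14.9% in the other animals of the cohort, in the 36 CpGs on chromosome 20 from 74998488 to 74999482. It was 18.8% in animal 6, against 10.3% to 13.8%, in the 157 CpGs on chromosome 1 from 113462017 to 113463015. It was 47.3% in animal 9, against 7.28% to 12.4%, on chromosome 1 from 171851051 to 171852040. It was 48.1% in animal 6, against 8.66% to 13.0%, on chromosome 4 from 55923547 to 55924526. It was 34.7% in animal 8, against 15.9% to 20.5%, in the 34 CpGs on chromosome 20 from 55153072 to 55154061.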

How the results depend on the processing

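The number of regions called for the ethanol value was 0 in each of 22 alternatives, and the 10 named slopes kept their direction in 220 of 220 fits, although the rule that named them fixed the sign in cohort 14 alone and without each animal. For cohort, no region was called in the fits that keep both animals of cohort 10. Without 1 of these 2, the model takes the lone animal to vary like the others. The region that stood out without animal 2 held 81 CpGs on chromosome 6 from 69778700 to 69779693. It had 20.2% in animal 1 of cohort 10, 4.05% in animal 2 and 4.41% ± 0.661 (SD, n = 9) in cohort 14. It reached the lower limit of 5% only through animal 1, the animal that stood out. The share of slopes above 0 was 61.6% to 71.9% without 1 animal, lowest without animal 4 of cohort 14. It was 64.3% in cohort 14 alone, 70.4% with no cohort term, 61.9% with mean methylation as a covariate and 55.6% with the level of regions below 5% as a covariate, an alternative chosen after seeing the data. There were 9995 to 10150 regions without 1 animal and 5875 with at least 40 positions, where fewer regions qualify.

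The share of one-end regions was 58.5% to 59.2% without 1 animal, 41.05% with limits of 60% and 85%, 55.9% in whole runs, 48.0% with split points shifted by 500 bp and 65.3% with the added counts removed. Both ends took 1.27% to 1.32% without 1 animal, 0.447% with the stricter limits, 2.18% in whole runs, 0.565% with shifted splits, 1.43% with at least 40 positions, 1.54% without the added counts and 1.40% without the 4 libraries that scatter most. Inside took 0.229% to 0.268% without 1 animal, 0.0298% with the stricter limits, 0.666% with segments by bp, 0.0826% in whole runs and 0.378% without the added counts. Even took 12.2% to 12.6% without 1 animal, 10.8% with segments by bp, 16.8% with shifted splits and 9.55% without the added counts. Mixed took 26.9% to 27.5% without 1 animal, 46.1% with the stricter limits, 30.2% in whole runs, 34.2% with shifted splits and 23.2% without the added counts. The stricter limits move regions to mixed by construction. The cause was not tested for the rest.

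The median range was 4.67 to 4.92 points without 1 animal, 4.54 with at least 40 positions and 3.88 without the 4 libraries, where fewer animals enter, and the SD in its place was 1.54. The adjoining level on the raised side was 59.0% to 59.7% without 1 animal, 69.5% with gaps up to 1000 bp and 53.9% with at least 10 positions. On the low side it was 3.72% to 3.83% without 1 animal, 4.23% with gaps up to 1000 bp and 3.08% without the added counts. No paired analysis was possible because no label links an animal of one cohort to an animal of the other.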

Other observations

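The lightly methylated share of CpG-rich regions ran from 16.2% of 1075 regions on chromosome 17 and 17.4% of 2367 on chromosome 20 to 26.0% of 1667 on chromosome 12. The 10057 regions lay in 8883 runs of measured positions. In 951 runs there were at least 2 of them, up to 7 in a single run, so that 2125 regions (21.1%) share a run with another and need not be separate loci.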
